A study of Mus musculus with 12 samples.

Results

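The cytosolic ribosomal protein genes encode the proteins of the large (Rpl) and small (Rps) ribosomal subunits, and they were followed here across 6 cell populations of the mouse small intestine. They were chosen by symbol: Rpl or Rps followed by a number and at most 1 letter (a, x, l or y), Rplp0 to Rplp2, and Rpsa, with S6 kinase genes and pseudogenes left out. This gave 67 of the 17097 genes measured, 43 of the large and 24 of the small subunit. Each was read from its brightest probe set, by the mean of all 12 arrays, among those that name that gene alone. Rpl5 and Rps3 were matched only by probe sets that name several genes and were not analysed here.

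The 6 populations were untreated primary cells isolated by their level of Mex3a, an RNA-binding protein gene, and of Lgr5, the receptor gene known as a marker of crypt base stem cells. They were the Mex3a-high, Mex3a-low and Mex3a-negative populations of Lgr5-high cells and the same 3 gates of Lgr5-low cells. Each population had 1 array from each of 2 biological replicates, MR793 and MR820 (n = 2 arrays per population), and each sample was made from 2000 cells with 22 cycles of amplification. The strain, the age, the number of animals behind a replicate and what reported the Mex3a level are not given in the labels, so p values measure the spread between these samples. The number of arrays limits the precision of every value.

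The ribosome translates mRNA into protein. Its small subunit decodes the mRNA and its large subunit joins the amino acids, and each ribosome carries a single copy of most of its proteins, so their genes are known to be expressed together and at a high level in nearly all cells. Many of their mRNAs begin with an uninterrupted run of pyrimidines (C or T in the DNA), the 5′ terminal oligopyrimidine (TOP) element, through which mTOR and the RNA-binding protein Larp1 control their translation. In the gut, dividing crypt cells are known for a high demand for ribosomes, and loss of single ribosomal protein genes is known to activate p53 through Rpl5 and Rpl11, which bind Mdm2.

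The start regions of members are shown because many mRNAs of the family are known to begin with a pyrimidine run. A RefSeq promoter table (GRCm38.p6) held 64 promoters of 53 of the 67 genes, matched by symbol. The windows below run from 12 bases before to 18 bases from the annotated start, 5′ to 3′ on the gene's strand, and the capitals mark the longest pyrimidine run in the window. The group printed first holds the genes that passed the test in an added fit described later, as far as the table has them. They are Rps19, with 3 annotated starts, Rps18, Rpl26, Rplp0, Rps15, Rpl36a and Rpl35. Rps2 and Rps6 follow as genes that varied little, then Rpl14, which lay farthest from the rest on 1 array, and Rpl39l, a paralog known from testis.
Rps19 (chr7:24884580-24884609, plus strand): gaaaTCTCgcgagactcgacgcccgacttg
Rps19 (chr7:24884664-24884693, plus strand): cacggtgagtgagggCTCTgggtcgcggct
Rps19 (chr7:24884901-24884930, plus strand): ggagcggggtgtggagggCTCTCCCacgcg
Rps18 (chr17:33955648-33955677, minus strand): gtcacttccgCTCTCTCTTCCacaggaggc
Rpl26 (chr11:68901554-68901583, plus strand): gcggcaaCTTacagaaccggaagtcgcgtg
Rplp0 (chr5:115559455-115559484, plus strand): ttcgggtttcgaggaccgcctggTTCTCCT
Rps15 (chr10:80292419-80292448, plus strand): ggcagagCTCgcgataactgcgcaagcgca
Rpl36a (chrX:134585642-134585671, plus strand): cacccaggcaccgcctataaaCTTCCgttg
Rpl35 (chr2:39005114-39005143, minus strand): ccccgCCCTTTCCTCTTTCTCTCgaaccag
Rps2 (chr17:24720051-24720080, plus strand): cagtcgagatctcgcgCTTCTTggagcact
Rps6 (chr4:86857350-86857379, minus strand): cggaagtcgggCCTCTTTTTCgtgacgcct
Rpl14 (chr9:120571505-120571534, plus strand): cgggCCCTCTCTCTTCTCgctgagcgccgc
Rpl39l (chr16:10170216-10170245, plus strand): ccaggCCTTTCCggatttccggtggtcgcc

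The runs printed differ in length. Rpl35 has 18 pyrimidines in a row, Rpl14 14, Rps18 11 and Rps6 10, while the longest run is 3 bases in Rpl26 and in Rps15. The 3 starts of Rps19 have runs of 4, 4 and 7 bases, and the genes of the added fit thus include both long and short runs. A run of at least 8 pyrimidines was in the window of 22 of the 64 promoters of the family (34.4%), against 11.6% of all 32851 promoters in the table. Of the 71 promoters of mitochondrial ribosomal protein genes, whose products work in another ribosome, 8.45% held such a run. The letters CTCTTT were in the same window of 9.38% of the members' promoters, 1.07% of all promoters and 0 of those of the mitochondrial family.

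The wider promoters, 250 bases before to 50 bases after the start, were searched on both strands for CCGGAAG, the core letters of an ETS-family binding motif, and for GGGCGG, the GC box. CCGGAAG was found in 39.1% of the members' promoters and 8.86% of all, and also in 32.4% of the mitochondrial family. GGGCGG was found in 57.8%, 35.7% and 52.1% of the same sets. CCGGAAG and the letters of the pyrimidine run can overlap in a window, as a match on the minus strand holds the run CTTCC. A match is a description of these letters, a missing one says nothing about a factor, and an annotated start need not be the start used in these cells.

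Of the arrays, the MR793 one of Mex3a-high Lgr5-high cells stood apart before any comparison. Its correlation with the other arrays over the 17097 genes was 0.892 to 0.914, so the members' medians and counts of called genes are given with and without it. Lgr5 had values of 9.0 to 10.21 (RMA log2) on the Lgr5-high arrays and 6.37 to 8.05 on the Lgr5-low arrays, a difference of 2.61 ± 0.23 (log2 difference ± SE, limma adjusted p = 8.43e-04). Mex3a had values of 5.63 to 6.35 and 5.44 to 5.71 on the same arrays and did not separate the Mex3a gates. All 10 epithelial identity genes lay above the median of all genes on every array, with a mean level of up to 11.59. The 12 mesenchymal and endothelial genes averaged 5.31 to 5.45 on the other 11 arrays and 5.99 on the array that stood apart, against a median of 6.46 to 6.61 for all genes. The 11 immune cell genes measured averaged 6.02 to 6.55 and 6.77 on the same arrays. Lyz2 was the highest of them on every array, at 9.97 to 13.06.

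The family gave some of the brightest signals on every array. The mean over 12 arrays was above 12 for 39 of the 67 members, between 11 and 12 for 18, between 6 and 11 for 7 and below 6 for 3, and 61 members lay above the 95th percentile of all genes. On each array 19.9 to 31.6% of the brightest 1% of genes were members. Rps2, a protein of the small subunit near the mRNA entry, had a mean of 13.50, Rps6, the target of S6 kinase, 13.08 and Rpsa, which is also known as a laminin receptor precursor, 13.06, close to the brightest probe set of an array (13.65 to 13.67). A probe set's brightness depends on its probes, so these values do not rank the genes by transcript number. Near the top of the scale a probe set can be close to saturation, and differences there may be compressed; this was not tested.

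The dim members were Rpl3l (mean 4.97), Rpl39l (4.98) and Rps15a (5.77), all below the median of all genes. Rpl3l is the form of Rpl3 known from heart and skeletal muscle. Its values were 4.69 to 5.50 over the 12 arrays, and those of Rpl39l were 4.85 to 5.35, each highest on the array that stood apart. Rps15a is a constituent of every small subunit, so its dim probe set does not show that the gene is off. Of the other paralogs, Rps27l, a p53 target gene, had values of 10.47 to 10.86 and Rpl22, a large subunit protein known from T cell development, 10.69 to 11.05 on the 11 arrays and 11.57 on the array that stood apart. Rpl10l and Rps4l were not among the genes measured here. Rpl22l1, the paralog of Rpl22, which the symbol rule does not take in, had values of 8.58 to 9.30.

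Over the 11 arrays other than the one that stood apart the members varied little. The range of a member (highest minus lowest array) had a median of 0.26, with extremes of 0.077 and 0.776, against a median of 0.44 over all genes, and was under 0.5 for 59 of 67 members. Bright genes in general varied less: the 57 members with a mean above 11 had a median range of 0.24 and the 496 other genes above 11 one of 0.36. The population means differed least in Rpl8, Rps2 and Rpl34. Rps2 had values of 13.47, 13.47, 13.49 on the Lgr5-low arrays of MR793 in the order Mex3a-high, -low, -negative, and 13.48, 13.55, 13.54 on those of MR820. They differed most in Rpl14, Rpl32 and Rpl13, and there mainly through the array that stood apart.

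**Figure D1:**
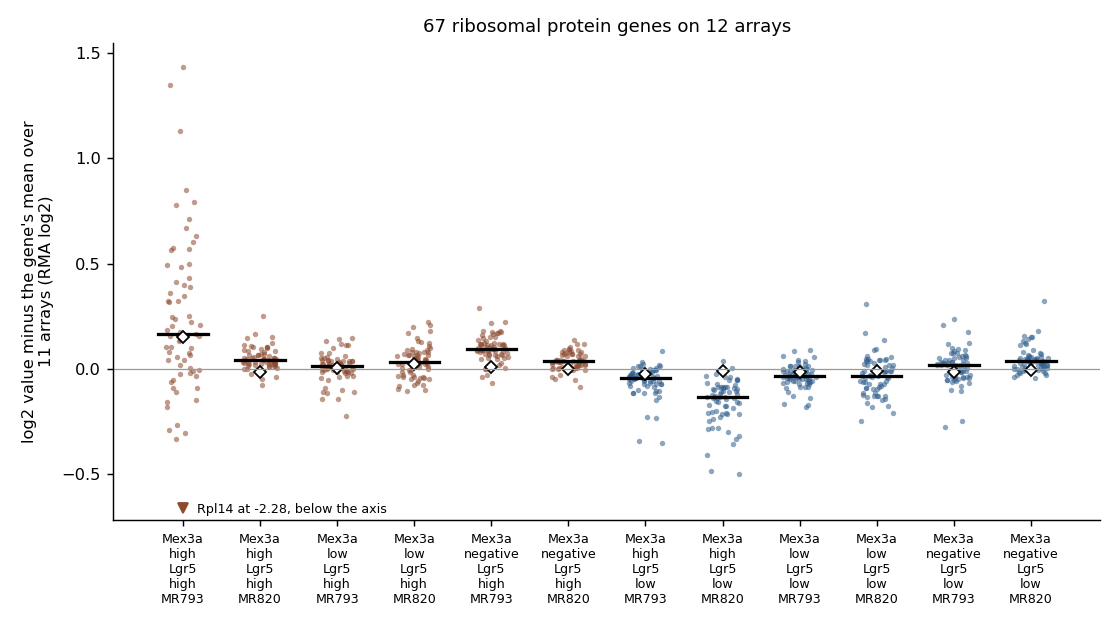
Each point is 1 of 67 ribosomal protein genes on 1 of 12 arrays, plotted as its RMA log2 value minus its own mean over the 11 arrays other than Mex3a-high Lgr5-high MR793; black lines are medians of the members, diamonds the median of all 17097 genes, brown Lgr5-high and blue Lgr5-low arrays. The members lie lowest as a group on Mex3a-high Lgr5-low MR820, with a median of -0.13, spread widest on Mex3a-high Lgr5-high MR793, and Rpl14 falls below the axis there.

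The family moved as a block between arrays by small amounts. On the Mex3a-high Lgr5-low array of MR820, 65 of 67 members lay below their own mean over the 11 arrays, and 47 were lower than on any other of these arrays, while 11.3% of all genes were lowest there. On its MR793 counterpart 9 members lay above their mean. On the Mex3a-negative Lgr5-low arrays 39 (MR793) and 54 (MR820) lay above it, and on the Mex3a-low Lgr5-low arrays 17 and 23. On the Mex3a-negative Lgr5-high array of MR793, 62 lay above it and 34 were highest, while 8.34% of all genes were highest there. The remaining Lgr5-high arrays had 43 to 58 members above their mean.

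The size of these shifts compares with the spread between replicates as follows. The 2 arrays of 1 population differed by a median over the members of -0.04 (Mex3a-low Lgr5-high, MR793 minus MR820, both on strip 1) to 0.08 (Mex3a-high Lgr5-low, on different strips), and by 0.14 in the population with the array that stood apart. A strip is the carrier of 4 arrays given in the labels. Strip 1 held Lgr5-high arrays only, strip 3 Lgr5-low arrays only, and strip 2 held 2 of each, all from MR820.

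No member passed the test in any of the 8 comparisons. Limma was fitted to all genes with the 6 populations as groups, and a gene was called at a Benjamini-Hochberg adjusted p under 0.05. The 0 of 67 members stand against 0% of all genes called between each pair of Mex3a gates in Lgr5-high cells. In Lgr5-low cells the share of all genes called was 1.73% for Mex3a-high against Mex3a-negative, 0.0468% for Mex3a-low against Mex3a-negative and 0.889% for Mex3a-high against Mex3a-low. Between Lgr5-high and Lgr5-low cells, averaged over the 3 Mex3a gates, it was 1.38%, and it was 0.398% for the interaction, that is whether Mex3a-high minus Mex3a-negative differed by Lgr5 gate. At an unadjusted p under 0.05 the members numbered 1, 0, 4, 0, 0, 0, 6 and 2 in that order, and all genes 661, 79, 621, 1145, 202, 797, 1984 and 634 of 17097.

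Without the array that stood apart limma again called 0 of 67 members in each of the 8 comparisons. The share of all genes called was then 0.0175%, 0% and 0.00585% in Lgr5-high cells, 5.29%, 0.0936% and 2.46% in Lgr5-low cells, 5.12% between the Lgr5 gates and 0.936% for the difference, in the order above. At an unadjusted p under 0.05 there were 0, 3, 1, 21, 2, 1, 21 and 1 members. For scale, 17.9% of all genes reached that level in Mex3a-high against Mex3a-negative Lgr5-low cells and 20.3% between the Lgr5 gates, so the 21 members in each are to be read against those shares.

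The design limits how small a change of a member could be seen. The 95% interval of a member's difference had a median margin of 0.27 to either side between Mex3a gates and 0.16 between Lgr5 gates. It lay wholly within -0.5 to 0.5 for 45 to 56 of 67 members in the 6 pairs of Mex3a gates and for 61 between the Lgr5 gates, and within -1 to 1 for 63 to 66 and 67. For the interaction the median margin was 0.39, and the interval lay within -0.5 to 0.5 for 30 members and within -1 to 1 for 56. In the first 7 comparisons most members thus have intervals that leave out a change of 0.5 log2, and a change near 0.1 was not detectable gene by gene.

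**Figure D2:**
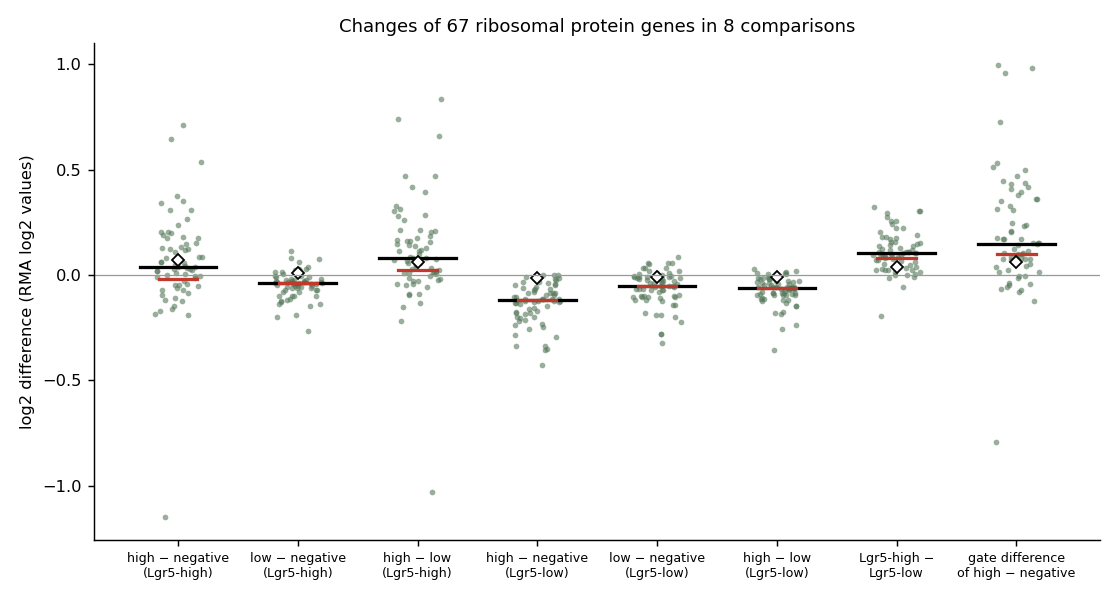
Each point is the log2 difference of 1 of 67 ribosomal protein genes in 1 of 8 comparisons; black lines are the medians of the members, short red lines the medians without the MR793 array of Mex3a-high Lgr5-high cells, and diamonds the median of all 17097 genes. Nearly all points lie below 0 for Mex3a-high minus Mex3a-negative in Lgr5-low cells (66 of 67) and above 0 for Lgr5-high minus Lgr5-low (61 of 67).

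In Lgr5-low cells the members were lower in the Mex3a-high population than in the Mex3a-negative one by small amounts. The median difference was -0.12, or -7.98% on the linear scale, with values from -0.42 to 0.00, and 66 of 67 members were lower, while the median of all genes was -0.01 and 53.7% of them were lower. By replicate the median was -0.07 in MR793, whose arrays shared a strip, and -0.16 in MR820, whose arrays did not, and 55 members were lower in both. Of the 496 other genes with a mean above 11, 351 were lower, with a median of -0.09. Large and small subunit genes had medians of -0.12 and -0.11. Both Mex3a-high arrays lay below both Mex3a-negative arrays for 52 of 67 members, and for 24.2% of all genes.

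The gene with the largest difference was Rps19, a small subunit protein whose gene is mutated in Diamond-Blackfan anaemia. Its values were 10.19 (MR793) and 9.68 (MR820) in Mex3a-high, 10.12 and 10.04 in Mex3a-low and 10.39 and 10.33 in Mex3a-negative Lgr5-low cells. Both Mex3a-high values lie below both Mex3a-negative values, and the MR820 value is the lowest of all. The difference was -0.42 ± 0.29 (limma adjusted p = 1.00), and -0.42 ± 0.15 (adjusted p = 0.168) without the array that stood apart.

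Rps18, a protein of the head of the small subunit, had values of 11.07 and 10.69 in Mex3a-high, 11.01 and 11.01 in Mex3a-low and 11.19 and 11.28 in Mex3a-negative Lgr5-low cells. The Mex3a-high arrays are again below the Mex3a-negative ones, by little in MR793. The difference was -0.35 ± 0.23 (limma adjusted p = 1.00, and 0.136 without the array that stood apart). Rpl14, a large subunit protein, had values of 9.05 and 9.08 against 9.12 and 9.72, so its difference of -0.35 ± 0.62 came mainly from MR820. Rpl26, which binds p53 mRNA as well as the ribosome, had values of 11.82 and 11.71 against 11.96 and 12.03, and the smallest adjusted p of the members here, 0.878 (0.115 without that array).

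At the other end were Rpl41, the smallest ribosomal protein, Rps14 and Rplp0, the protein that anchors the stalk. Rpl41 had values of 12.75 and 12.69 in Mex3a-high and 12.75 and 12.69 in Mex3a-negative Lgr5-low cells, a difference of 0.00 ± 0.13. Other Rpl41 probe sets were lower, by -0.10, -0.07 and -0.22. Rplp0 had values of 12.48 and 12.75 against 12.47 and 12.77, and differed by more between the replicates than between the populations. The other 2 stalk proteins were lower: Rplp1 by -0.12 ± 0.11 and Rplp2 by -0.18 ± 0.15. Rpl11 differed by -0.13 ± 0.14, Rps6 by -0.04 ± 0.08, Rpsa by -0.02 ± 0.09, Rpl22 by -0.20 ± 0.19 and Rps27l by -0.25 ± 0.14, each with a limma adjusted p of 1.00. Other probe sets gave -0.20 for Rpl11, -0.25 for Rps6, -0.37 for Rpsa, 0.02 for Rpl22, and -0.29 and -0.46 for Rps27l.

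In this comparison members of lower brightness had larger differences. The median was -0.08 for the 39 members above 12 and -0.13 for the 18 between 11 and 12. It was -0.23 for the 10 at or below 11, of which 3 were below 6. Of the other Lgr5-low comparisons, Mex3a-low against Mex3a-negative gave -0.02, -0.11 and -0.07. Mex3a-high against Mex3a-low gave -0.06, -0.05 and -0.16, so neither followed this order. Between the Lgr5 gates the difference again grew with lower brightness. The medians were 0.08, 0.14 and 0.19, or 0.07, 0.09 and 0.12 without the array that stood apart. The part of compression near the top of the scale in this order was not tested.

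Probe sets that the rule did not use gave the same direction. Another 54 probe sets of 32 members had a mean above 6. Of these 51 were lower in Mex3a-high Lgr5-low cells than in their Mex3a-negative counterparts, with a median of -0.16. They share their cells, their arrays and partly their transcripts with the probe sets used, and so are no further samples.

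**Figure D3:**
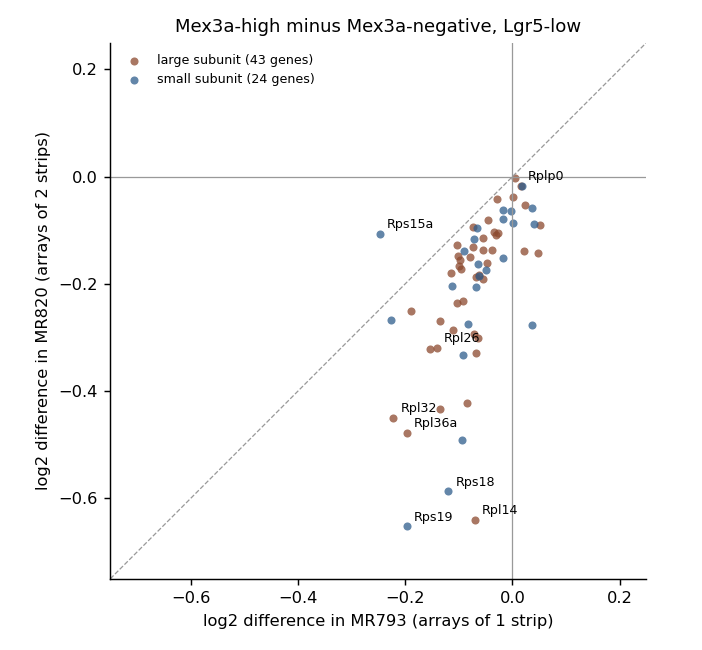
Each point is 1 of 67 ribosomal protein genes, with its log2 difference between Mex3a-high and Mex3a-negative Lgr5-low cells in MR793 (horizontal, both arrays on 1 strip) and MR820 (vertical, arrays on 2 strips); the dashed line marks equal differences. All 67 genes are below 0 in MR820 and 55 in MR793, and the differences of Rps19, Rps18 and Rpl14 are several times larger in MR820.

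Scaling and pairing moved this comparison. With every array centred on 1 median the median of all genes fell to -0.11 and that of the members to -0.22, so that the distance between them was nearly as before. With the replicate as a block and without the array that stood apart, a fit added after the data were seen, limma called 3 members lower, Rps19 (adjusted p = 0.0312), Rps18 (0.0448) and Rpl26 (0.0465), while it called 5.26% of all genes lower. With the block on all 12 arrays it called 0 members and the smallest adjusted p of a member was 0.689.

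The same populations differed far more in the genes of some other cell types. Of the tuft cell genes all 11 measured were called higher in the Mex3a-high population. Their mean level was 10.17 (MR793) and 10.11 (MR820) against 5.43 and 5.44, and the means below keep this order of replicates. All 13 enteroendocrine genes were higher, 11 of them called, with means of 10.16 and 9.91 against 6.21 and 5.87. The 5 Paneth cell genes averaged 10.01 and 9.82 against 7.24 and 8.04. Of them 4 were higher, 3 of these called, and 1 was lower. Without the array that stood apart limma called 4 higher and 1 lower. The 10 enterocyte genes averaged 10.65 and 10.75 against 11.34 and 9.55. Their median differences were -0.73 in MR793 and 1.26 in MR820, with 0 called. Goblet cell genes (4 higher, 4 lower) and crypt base stem cell genes (9 higher, 3 lower) had medians of 0.00 and 0.11 with 0 called. Of the immune cell genes 9 were higher, 2 of these called, and 2 were lower, with a median of 0.08. These log2 array values have no zero, so no marker can be said to be absent. In such bulk samples fewer cells of a type and less RNA per cell cannot be told apart, and the part of these cell types in the members' shift was not tested.

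Companion genes of ribosome production gave the same direction in this comparison. Of 28 measured genes for making ribosomes, 26 were lower and 0 called, with a median of -0.27. Nop10, a box H/ACA particle protein, differed by -0.27 ± 0.12 (limma adjusted p = 0.742) and Rrp12, a ribosome export factor, by -0.50 ± 0.24 (adjusted p = 0.846). Of 18 translation factor and other TOP genes 15 were lower with a median of -0.09, and the only call was the intermediate filament gene Vim, a TOP gene that is higher by 3.18 ± 0.43 (adjusted p = 0.00387).

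Of 73 mitochondrial ribosomal protein genes 71 were lower, with a median of -0.32, more than the cytosolic family, and 0 called. These genes were dimmer than most members, with mean levels of 9.33 to 9.70 on the arrays compared. The 10 members at or below 11 had a median of -0.23. Without the array that stood apart limma called 6 of the 73 mitochondrial genes lower. Of 19 mitosis genes 19 were lower with a median of -0.57 and 0 called, and without that array limma called 8. Cdk1, the mitotic kinase gene, differed by -0.49 ± 0.16 (adjusted p = 0.345) and Ube2c, which works with the anaphase-promoting complex, by -0.45 ± 0.16 (adjusted p = 0.419, and 0.0421 without the array). The regulators of ribosomal protein translation gave 8 of 10 lower, a median of -0.10 and 0 called.

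The Mex3a-low Lgr5-low population lay between the other 2. Its members were lower than in the Mex3a-negative population by a median of -0.05 (53 of 67 lower; -0.04 in MR793 and -0.07 in MR820), and those of the Mex3a-high population were lower than in it by -0.06 (60 of 67 lower). The second comparison has both arrays of each replicate on 1 strip, with medians of -0.03 and -0.10. The comparisons share arrays, so their directions are not independent. The largest differences of Mex3a-low against Mex3a-negative were Rpl32 (-0.32 ± 0.34), Rps19 (-0.28 ± 0.29) and Rps10 (-0.28 ± 0.17), and the largest the other way Rps20 (0.08 ± 0.09), Rps15a (0.06 ± 0.20) and Rpsa (0.06 ± 0.09).

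Rps10, which lies near the mRNA entry and is marked on collided ribosomes, was among the largest differences of Mex3a-low against Mex3a-negative. It had values of 11.75 and 11.31 in Mex3a-high, 11.63 and 11.46 in Mex3a-low and 11.84 and 11.80 in Mex3a-negative Lgr5-low cells. Only the Mex3a-negative values stand apart from the rest, and the Mex3a-high and Mex3a-low arrays overlap. Other Rps10 probe sets did not repeat this evenly. Against Mex3a-negative Lgr5-low cells they differed by 0.11 and -0.05 in Mex3a-low and by -0.02 and -0.29 in Mex3a-high cells. Between Mex3a-high and Mex3a-low the largest differences were Rpl14 (-0.35 ± 0.62), Rpl36a (-0.25 ± 0.18) and Rps15a (-0.24 ± 0.20), against 0.03 ± 0.13 for Rpl41, 0.02 ± 0.20 for Rpl24 and 0.01 ± 0.11 for Rpl17. Limma gave an adjusted p of 1.00 for each of these genes.

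Between the Lgr5 gates the members were higher in Lgr5-high cells, again by little. The median difference was 0.10 over all arrays, with 61 of 67 members higher, and 0.08 with 64 of 67 higher without the array that stood apart. The median of all genes was 0.04 and 0.01 in these fits. By replicate the members' median was 0.12 in MR793 and 0.09 in MR820. Of the 496 other genes above 11, 343 were lower, with a median of -0.09 that became -0.01 without that array.

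Strip and Lgr5 gate overlap in this design. Within strip 2, the only one that holds both, the 2 Lgr5-high arrays (Mex3a-high and Mex3a-negative) exceeded the 2 Lgr5-low arrays (Mex3a-high and Mex3a-low) by a median of 0.13, with 64 of 67 members higher and a median of 0.00 for all genes, so Mex3a level differs between these arrays too. With the strip as a block the median of the members was 0.07 and that of all genes -0.02, and limma called 0 of all genes. For 4 members every Lgr5-high array lay above every Lgr5-low array, against 1.3% of all genes: Rpl36a, Rpl37a, Rpl4 and Rps15, of which all but Rpl36a are named because they make up this count.

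The same difference was read within each Mex3a gate. In MR820 the Mex3a-high Lgr5-high array exceeded the Mex3a-high Lgr5-low array by a median of 0.17, with 66 of 67 members higher, on the same strip. The Mex3a-low arrays differed by 0.07 (47 higher) and the Mex3a-negative arrays by 0.00 (30 higher), on different strips. In MR793 the 3 gates gave 0.23, 0.05 and 0.08, the first of them with the array that stood apart. The Mex3a-high and Mex3a-negative differences are set against each other by the interaction, in which 0 members were called.

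Rpl36a, a large subunit protein near the exit site for tRNA, had the smallest adjusted p. Its values in Lgr5-high cells were 10.56 and 10.27 (Mex3a-high, MR793 and MR820), 10.24 and 10.29 (Mex3a-low) and 10.46 and 10.28 (Mex3a-negative). In Lgr5-low cells they were 10.02 and 9.68, 9.998 and 10.21, and 10.22 and 10.16. The lowest Lgr5-high value exceeds the highest Lgr5-low value by a margin smaller than the range within either gate. The difference was 0.30 ± 0.11 (limma adjusted p = 0.289), and 0.26 ± 0.08 (adjusted p = 0.117) without the array that stood apart.

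Rpl32 and Rpl13 had the other large positive differences, 0.32 ± 0.20 (limma adjusted p = 0.515) and 0.31 ± 0.18 (adjusted p = 0.511), which fell to 0.10 and 0.11 without that array. Another Rpl13 probe set went the other way, with a difference of -0.64 over all arrays. Rpl14 was the most negative at -0.19 ± 0.36 (limma adjusted p = 0.782), and became 0.23 without the array that stood apart. Rps27l (-0.06 ± 0.08) and Rpl10, which completes the large subunit late in its assembly (-0.01 ± 0.06), were the other 2 largest negative values. The stalk proteins gave 0.16 ± 0.09 for Rplp0, 0.12 ± 0.07 for Rplp1 and 0.22 ± 0.09 for Rplp2 (0.15 without that array), Rps2 0.00 ± 0.04, Rps6 0.06 ± 0.05, Rpsa 0.09 ± 0.05 and Rpl11 0.15 ± 0.08 (0.09 without that array), with limma adjusted p values of 0.365 to 0.994.

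With the replicate as a block and without the array that stood apart, the fit added after the data were seen, limma called 5 members higher in Lgr5-high cells and 4.73% of all genes higher. They were Rplp0 (0.18, adjusted p = 0.0150), Rps15 (0.18, 0.0213), Rpl7 (0.15, 0.0223), Rpl36a (0.26, 0.0444) and Rpl35 (0.14, 0.0478). Rpl7 and Rps15 are named because they are among the 5. Their count of 5 in 67 is to be read against that background share. With the block on all 12 arrays limma called 0 members, with a smallest adjusted p of 0.226.

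Rplp0 shows what the block changed. Its Lgr5-high values were 12.73, 12.70 and 12.71 in MR793 and 12.88, 12.90 and 12.85 in MR820, in the order Mex3a-high, -low, -negative. Its Lgr5-low values were 12.48, 12.54 and 12.47 in MR793 and 12.75, 12.81 and 12.77 in MR820. The gates overlap over all arrays and do not overlap within either replicate, since every MR820 value exceeds its MR793 counterpart.

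Rps15, a small subunit protein, had values of 12.20, 11.78 and 11.89 in MR793 and 11.73, 11.91 and 11.75 in MR820 among Lgr5-high cells. Among Lgr5-low cells they were 11.57, 11.64 and 11.64 in MR793 and 11.54, 11.64 and 11.66 in MR820. The gates do not overlap, with the lowest Lgr5-high value close above the highest Lgr5-low value. Another Rps15 probe set differed by 0.28. Over the 54 probe sets that were not used, 39 were higher in Lgr5-high cells with a median of 0.07, and 44 with a median of 0.10 without the array that stood apart.

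Of the companion genes, Myc, the transcription factor known to drive ribosome production, was called higher in Lgr5-high cells by 0.54 ± 0.10 (limma adjusted p = 0.0434), with differences of 0.64 in MR793 and 0.43 in MR820 (0.50, adjusted p = 0.0109, without the array that stood apart). It was the only gene called of the 10 regulators over all arrays. Without that array limma called Mycl, a paralog of Myc, higher too (0.78, adjusted p = 0.00903); it is named because it makes up this count. The translation factor and TOP genes were higher in 16 of 18 and the ribosome production genes in 23 of 28, with medians of 0.08 and 0.07 and 0 called. Without the array that stood apart these medians were 0.10 and 0.20, with 2 of the TOP genes called higher, 1 called lower and 0 ribosome production genes called. Nop56, a box C/D particle protein, differed by 0.35 ± 0.14 (limma adjusted p = 0.380), and by 0.22 (0.169) without that array. The mitochondrial ribosomal protein genes went the other way, with 60 of 73 lower and a median of -0.12 (-0.06 without the array that stood apart, where limma called 3 lower).

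All 12 crypt base stem cell genes were higher in Lgr5-high cells, 6 of them called, with mean levels of 9.80 to 10.42 against 8.92 to 9.53. The list includes Lgr5 itself, which was among those called and by which the cells were isolated, so its direction was set by the gate. All 11 tuft cell genes were lower, 9 called, with mean levels of 5.22 to 7.04 against 5.43 to 10.17, and all 13 enteroendocrine genes were lower, 8 called. Of 8 goblet cell genes 7 were lower, 3 called. The 10 enterocyte genes were lower, 1 called. Without the array that stood apart limma called 10 stem cell, 11 tuft cell, 10 enteroendocrine, 6 goblet cell and 2 enterocyte genes. The part of these cell types in the members' difference was not tested.

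In Lgr5-high cells the comparisons of the Mex3a gates turned on the array that stood apart. Mex3a-high exceeded Mex3a-negative cells by a median of 0.04 (43 of 67 higher), which became -0.02 (23 higher) without it, and all genes had medians of 0.07 and -0.01. In MR820 alone, with both arrays on strip 2, the members' median was 0.01 with 39 higher. Mex3a-high exceeded Mex3a-low cells by 0.08 (50 higher) and by 0.02 (47 higher) without it. Without the MR820 array of the Mex3a-high Lgr5-high population, which leaves it with the array that stood apart alone, assumed to vary like the other groups, limma called 34 members in each of these comparisons, and 62.3% and 60.7% of all genes.

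The largest differences against Mex3a-negative were Rpl13 (0.71 ± 0.31), Rpl32 (0.65 ± 0.34) and Rps19 (0.53 ± 0.29), and the other way Rpl14 (-1.15 ± 0.62), Rpl27 (-0.19 ± 0.13) and Rpl15 (-0.19 ± 0.12), with limma adjusted p values of 0.505 to 0.506. With that array left out they were 0.11, -0.01, 0.04, 0.12, -0.02 and -0.01 in that order. The same 6 genes were the extremes against Mex3a-low cells. Mex3a-low and Mex3a-negative cells, to which this array does not belong, differed by a median of -0.04 (54 of 67 lower). The median was -0.09 in MR793 on 1 strip and 0.00 in MR820 on different strips. The array still enters the SE and p values here through the shared estimate of the spread. The members' median SE was 0.12 with it and 0.07 without it. The extremes were Rps13 (-0.27 ± 0.17), Rps27l (-0.20 ± 0.14) and Rpl32 (-0.19 ± 0.34), against Rpl35 (0.12 ± 0.12), Rpl37 (0.08 ± 0.14) and Rpl3l (0.08 ± 0.17), each with a limma adjusted p of 1.00.

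The change from Mex3a-negative to Mex3a-high cells was compared between the Lgr5 gates. The difference of the changes (Lgr5-high minus Lgr5-low) had a median of 0.15 over the members, with 55 of 67 positive, and 0.10 with 61 positive without the array that stood apart, against 0.06 and -0.01 over all genes. Limma called 0 members in both fits, with smallest adjusted p values of 0.865 and 0.456. The largest were Rpl13 (0.99 ± 0.45), Rpl32 (0.98 ± 0.48) and Rps19 (0.96 ± 0.41), which became 0.40, 0.32 and 0.47 without that array. The largest negative were Rpl14 (-0.79 ± 0.88, 0.47 without the array), Rps16 (-0.12 ± 0.18) and Rpl31 (-0.08 ± 0.18).

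On the array that stood apart the members spread in both directions. Of the 67, 41 were above and 8 below all other 11 arrays. Among all genes 45.0% were above and 29.6% below. The 496 other genes with a mean above 11 went the other way, with 10.9% above and 66.5% below, and a median deviation from the median of the other arrays of -0.42, against 0.14 for the 57 members above 11. Rpl32 had a value of 12.75 there against 10.98 to 11.56 on the others, Rpl13 11.81 against 10.17 to 10.62 and Rps19 11.31 against 9.68 to 10.39. Rpl14 had 7.12 against 9.05 to 9.72.

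Probe sets of 1 gene could disagree on this array. Of 32 members with more than 1 probe set above 6, 7 had probe sets that deviated in opposite directions by over 0.1, and in 11 the deviations spread by more than 1. An Rpl23 probe set had a value of 5.92 there against 8.32 to 9.05 elsewhere, while the one used had 12.44 against 12.37 to 12.61. An Rpl15 probe set had 8.92 against 10.91 to 11.37, and the one used 12.34 against 12.52 to 12.74. An Rps6 probe set had 7.89 against 9.01 to 9.51, and the one used 13.08 within 13.01 to 13.16. The 5′ minus 3′ difference of the Actb control probe sets was 0.63 on this array and 0.39 to 0.54 on the others, and that of Gapdh -0.08 within -0.12 to -0.02. The part of RNA quality and amplification in these deviations was not tested.

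**Figure D4:**
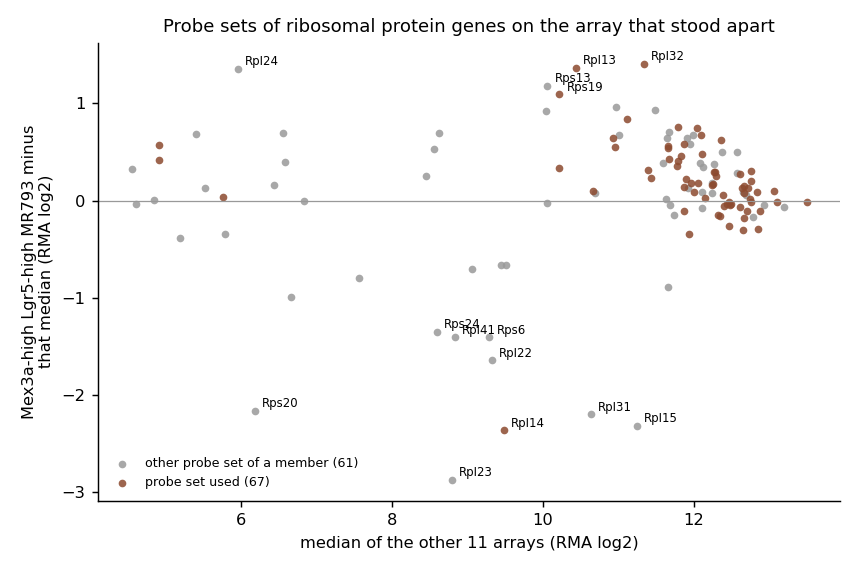
Each point is 1 of the 128 probe sets of the 67 genes, with its median over the other 11 arrays (horizontal, RMA log2) and its deviation on the MR793 array of Mex3a-high Lgr5-high cells (vertical, RMA log2); brown points are the 67 used, grey points the other 61, and genes that deviate by more than 1 are named. Of the probe sets used, those of Rpl32, Rpl13 and Rps19 lie above 1 and that of Rpl14 below -2, while other probe sets of Rpl15, Rpl31, Rpl23 and Rps20 also lie below -2.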

How the data were processed

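The table deposited by the authors gives 1 log2 value per probe set and array, normalized with RMA according to the submitters' processing notes. No source used here states the RMA version or its settings. The table holds 45141 probe sets, of which 28898 name 1 gene in the probe table, and they give 17097 genes, each by its brightest such probe set. Values were used as deposited, with no filter on low values. All 67 ribosomal protein genes matched a mouse gene table by gene identifier. Of their probe sets 24 carry an s or x suffix and may cross-hybridise.

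Genes were fitted with limma 3.58.1 (R 4.3.3) as 6 population means without a block, with a variance trend, and adjusted by the Benjamini-Hochberg method over all 17097. SE is limma's moderated standard error. The script was tested on simulated data. Pairing comes from the labels, in which all 6 populations share the 2 biological replicates: the replicate differences of 14 of 15 pairs of populations correlated over 0.1 (lowest -0.115, median 0.382, highest 0.566), and without the array that stood apart all 10 at 0.374 to 0.566, so blocked values are given where they change a member's call. A strip was tried as a block too, and the scaling, the choice of probe set, the variance trend and each array left out were varied.

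The members, the lists and the rule for named genes were chosen with earlier results of these data known. The rule takes the 3 largest differences each way and up to 6 called members per comparison, paralogs, stalk proteins with Rpsa, Rps6 and Rpl11, extremes of mean and spread, and the smallest p values of the companion lists.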

Additional observations from a re-analysis of the deposited data

How the results depend on the processing

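The members' median kept its sign in 22 of 22 alternatives in 7 comparisons and in 19 of 22 for Mex3a-high against Mex3a-negative Lgr5-high cells. Leaving out 1 array in turn gave medians of -0.020 to 0.13 there and of 0.091 to 0.20 for the difference between the Lgr5 gates. After centring every array on 1 median, the medians were -0.22 for Mex3a-high against Mex3a-negative and -0.14 for Mex3a-high against Mex3a-low Lgr5-low cells, and 0.20 for the difference between the gates. Between the Lgr5 gates the median was 0.14 after quantile normalization and 0.066 with the strip as a block, or 0.079 when the array that stood apart was left out as well. For the difference between the gates the strip block gave 0.11, or 0.10 without that array, and the replicate block without it 0.12. In the paired fit with the replicate as a block on all 12 arrays 0 of 67 members were called in each of the 8 comparisons, and without that array 3 were called in Mex3a-high against Mex3a-negative Lgr5-low cells and 5 between the Lgr5 gates; the block changed no other call of a member. Leaving out 1 array in turn gave 0 to 34 called members for Mex3a-high against each other Mex3a gate in Lgr5-high cells, 0 to 36 between the Lgr5 gates and 0 to 28 for the difference between them; each upper value came when the MR820 array of Mex3a-high Lgr5-high cells was left out, and the cause was not tested. Over all alternatives, the count of all genes called was 0 to 10644, 0 to 4 and 0 to 10379 in Lgr5-high cells (0 in each as reported), 143 to 2033 (295), 0 to 57 (8) and 42 to 895 (152) in Lgr5-low cells, 0 to 9323 (236) between the gates and 17 to 8315 (68) for the difference. With s and x probe sets left out 59 members were tested, and with genes above the median mean 64.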

Other observations

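Outside the symbol rule, 4 further cytosolic ribosomal protein and fusion genes of the list were measured (Rpl22l1, Rpl36al, Rpl7l1 and Fau), and all 4 were lower in Mex3a-high Lgr5-low cells than in their Mex3a-negative counterparts, with 0 called. Rpl22l1, the paralog of Rpl22, had values of 8.83 and 8.62 in Mex3a-high, 9.0 and 9.01 in Mex3a-low and 9.09 and 9.30 in Mex3a-negative Lgr5-low cells, a difference of -0.47 ± 0.20 (limma adjusted p = 0.667, and 0.0596 without the array that stood apart). With the replicate as a block and without that array, a fit added after the data were seen, limma called it lower (adjusted p = 0.0216). Rpl22 itself differed by -0.20 ± 0.19 in the same comparison. Rps3a1, a small subunit gene outside both the rule and that list, had values of 12.84 and 12.75 against 12.86 and 12.91. Fau, whose product is cleaved to a ubiquitin-like protein and Rps30, had 11.57 and 11.32 against 11.64 and 11.45.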
